A study of Osmia excavata with 6 samples.

Results

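Aminoacyl tRNA ligases join each amino acid to its transfer RNA at the expense of ATP, and so supply every substrate of the ribosome. Animals keep one set of these enzymes in the cytoplasm and another in the mitochondrion, and both are encoded in the nucleus. The mitochondrial set loads the tRNAs that translate the few respiratory chain subunits encoded by mitochondrial DNA, and the cytoplasmic set serves all other translation. The members were the rows of the expression table whose protein description ends with the name of 1 of 9 bee genera and contains the words tRNA ligase or tRNA synthetase. The rule found 41 rows among 37061, and 34 of them matched the leafcutter bee Megachile rotundata. The description of 19 members names the mitochondrion and that of 13 the cytoplasm. The other 9 name no compartment. They had no mitochondrial Swiss-Prot match and were counted as cytoplasmic, which made 22.

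The samples were 3 control libraries and 3 libraries from bees immersed in water, all of Osmia excavata Alfken, a solitary mason bee whose adults emerge from cocoons. Immersion served to promote emergence, and by their titles the immersion samples are a decocooning group, so effects of wetting and of leaving the cocoon cannot be told apart. Body part, sex, age, number of bees per library and time after immersion were not given in the sources used here, so there was no labelled tissue to check against markers. Nothing states that replicates were separate animals, so p-values measure only the spread between these samples.

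Estimated counts summed to between 16765886 and 19953734 per library, of which the 41 members held 23377 to 31333 in controls and 39648 to 43495 after immersion. Genes matching Caenorhabditis worms stood at 3464 CPM (counts scaled to the library's total) in control 1, at 0.908 and 0.208 in controls 2 and 3, and at 14053 to 14978 after immersion. Genes matching human, mouse or rat stood at 12768 CPM in control 1 and at 184 and 80.3 CPM in controls 2 and 3. After immersion they stood at 4143 to 7460 CPM. Control 1 is thus the only control that shares the worm reads in quantity with the immersion libraries, but it held fewer of them and more mammal reads. The main results are given also against control 1 alone, a contrast that is not matched for the amount of foreign reads. Marker lists of other tissues moved with the groups as well. The 9 fat body markers summed to 20117 to 81592 normalised CPM in controls and to 10519 to 12605 after immersion, and the 27 nervous system markers to 762 to 1147 against 657 to 711. Not all of these markers were lower. Of the tested ones, 3 of 9 fat body and 4 of 23 nervous system markers had a positive log2 fold change, against 51.2% of all genes. The sums overlapped between the groups for 36 muscle markers (31728 to 43865 against 20480 to 34010), 23 gut markers (4557 to 9444 against 5864 to 6406), 4 ovary markers (501 to 1153 against 541 to 589) and 14 testis markers (376 to 557 against 411 to 530). Of the 32 tested muscle markers 29 had a negative log2 fold change, with a median of -0.88. In 20 of them every immersion library lay below every control, against 22.2% of all tested genes. All 8 tested testis markers had a positive log2 fold change (median 0.34) and all 4 ovary markers a negative value (median -0.45). Of the 18 tested gut markers 7 were positive (median -0.14). Against control 1 alone the testis, ovary and gut medians were 0.06, 0.10 and 0.52. All 9 fat body markers were above 0 in every library, and 2 muscle, 1 nervous system and 1 testis row were at 0 in all. The part of these tissues in the results was not tested, and in bulk RNA fewer cells of a type and less RNA per cell cannot be told apart.

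In edgeR's quasi-likelihood test over 9250 Hymenoptera genes, 0 of the 36 tested ligases passed an adjusted p of 0.05, where the share of all genes called was 0.00%. The Benjamini-Hochberg adjusted p was lowest, at 0.0907, in Sars and RARS. The log2 fold change of immersion over control was positive for 32 of the 36, against 51.2% of all tested genes, with a median of 0.40 against 0.02. At an unadjusted p under 0.05, 15 ligases were higher and 0 lower, where the background was 14.2% of genes higher and 20.6% lower. In 20 ligases every immersion library lay above every control, which held for 24.0% of all genes, and in 0 every immersion library lay below, against 22.2%. By the deposited TPM (a level scaled for transcript length) 18 of the 36 were apart in this way, against 24.9% of all genes.

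Of the 41 members, 5 had too few reads to be tested. They are fragments of at most 669 bases, none with more than 24.3 estimated counts in any library, and each repeats an enzyme that a longer row already covers. A short arginine row (TRINITY_DN6026_c0_g1) was listed at 4.73 and 33.6 TPM in controls 1 and 2 and at 0 elsewhere, and a short mitochondrial isoleucine row (TRINITY_DN7677_c0_g1) at 2.14 to 4.06 TPM in controls and at 0 after immersion. The other 3 fragments averaged 0.253 to 1.98 TPM in controls and 0.833 to 2.41 after immersion. The remaining 36 rows had reads in all 6 libraries, and those of at least 1000 bases had at least 29.9 estimated counts in each. The cytoplasmic rows cover 19 of the 20 amino acids, the exception being tyrosine, and the mitochondrial rows cover 14. A row described as a mitochondrial-like serine ligase, DNAH1 (TRINITY_DN237_c0_g1), has an axonemal dynein as its Swiss-Prot match, so its label is uncertain.

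**Figure D1:**
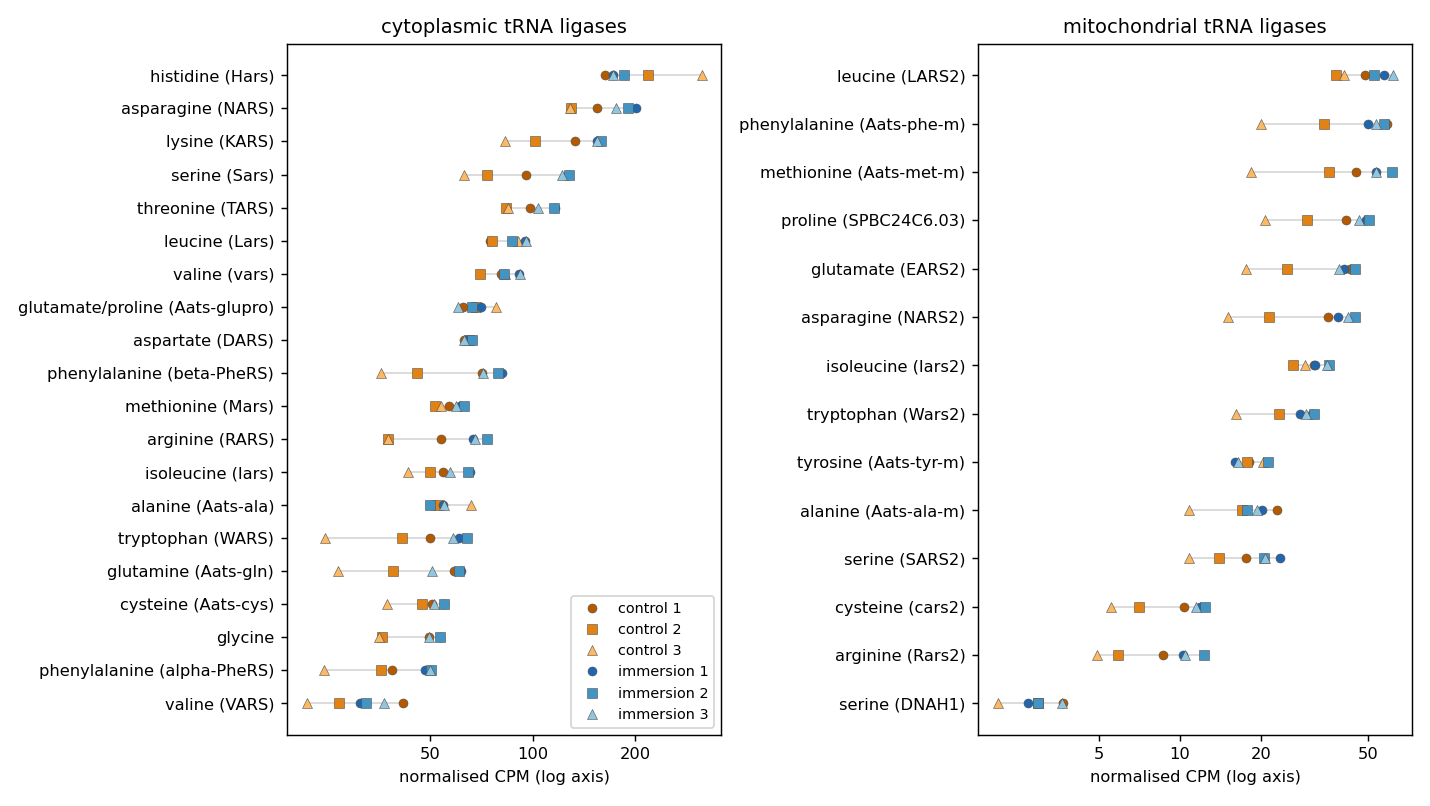
Normalised CPM (CPM of the estimated counts after TMM scaling, log axis) of the 20 cytoplasmic and 14 of the mitochondrial tRNA ligases that were tested, with 1 point per library. Orange points are controls and blue points immersion libraries. Control 3 is the lowest point in 22 of the 34 rows, and control 1 is the highest control in 27.

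The tested cytoplasmic ligases spanned a range of 9.96 to 137 TPM as means over the 6 libraries, with a median of 30.0 TPM. The histidine enzyme, Hars (TRINITY_DN1935_c0_g1), had the highest mean, 156 ± 54.9 TPM in controls and 118 ± 2.24 in immersed samples (mean ± SD of 3 libraries, here and below). Asparagine followed with NARS (TRINITY_DN11729_c0_g1) at 83.6 ± 6.57 and 113 ± 9.44 TPM, then lysine with KARS (TRINITY_DN3044_c0_g2) at 74.0 ± 16.2 and 108 ± 2.49 and serine with Sars (TRINITY_DN3433_c0_g1) at 61.5 ± 11.4 and 108 ± 2.63. In controls the TPM of Hars, from 103 upward, lay above those of the other 3, and NARS overlapped KARS and KARS overlapped Sars. After immersion NARS, from 106 to 123 TPM, overlapped the range of each of the others. The lowest cytoplasmic level belonged to a valine ligase-like row, VARS (TRINITY_DN9469_c0_g1), with 9.58 ± 2.90 TPM in controls. The other valine row, vars (TRINITY_DN24158_c0_g1), had 27.3 ± 1.89. Neither names a compartment, so their place in the cytoplasmic set is uncertain, and reads of the pair may be split between them.

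In the cytoplasmic set 17 of 20 tested enzymes had a positive log2 fold change, against 51.2% of all genes, and the median was 0.34. In edgeR 8 reached an unadjusted p under 0.05, all higher, beside 14.2% of all genes higher and 20.6% lower. Seryl and arginyl ligases had the smallest p. Sars stood at 95.8, 73.3 and 63.1 normalised CPM in controls 1, 2 and 3 and at 127, 128 and 122 in the immersion libraries. All 3 immersion values lay above all controls, and control 1 was the nearest to them. Its log2 fold change was 0.70 ± 0.18 (SE; adjusted p = 0.0907 in edgeR). RARS (TRINITY_DN6026_c0_g2), the arginine enzyme, had 53.7, 37.8 and 37.8 in controls and 66.7, 73.6 and 68.0 after immersion. Its groups were apart too, with controls 2 and 3 level (0.69 ± 0.18, adjusted p = 0.0907 in edgeR). The log2 fold changes of Sars and RARS against control 1 alone were 0.39 and 0.37.

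In further enzymes every immersion library also lay above every control. NARS had 155, 129 and 129 normalised CPM in the controls, against 201, 190.5 and 176 after immersion (0.46 ± 0.15, adjusted p = 0.106 in edgeR). KARS, whose human counterpart serves both compartments from a shared gene, had 133, 102 and 82.8 against 155, 159 and 154 (0.56 ± 0.19, adjusted p = 0.111 in edgeR). In KARS the immersion libraries lay close together while the controls were spread, and in NARS both groups were spread alike. WARS (TRINITY_DN11529_c0_g1), the tryptophan enzyme, had 49.98, 41.3 and 24.6 in controls and 61.0, 64.5 and 58.6 after immersion (0.67 ± 0.25, adjusted p = 0.124 in edgeR). TARS (TRINITY_DN356_c0_g1), for threonine, had 98.0, 83.6 and 84.5 against 117, 115 and 104 (0.34 ± 0.14, adjusted p = 0.141 in edgeR). WARS thus showed a low control 3, whereas in TARS controls 2 and 3 were alike and the groups were separated by a narrow gap. NARS, KARS, WARS and TARS had log2 fold changes against control 1 alone of 0.29, 0.23, 0.30 and 0.19.

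The phenylalanine enzyme of the cytoplasm is a tetramer of alpha and beta subunits, and both subunits were measured. Alpha-PheRS (TRINITY_DN5077_c0_g1) had 38.7, 36.0 and 24.4 normalised CPM in the controls, against 48.4, 50.2 and 50.1 after immersion (0.58 ± 0.20, adjusted p = 0.109 in edgeR). Beta-PheRS (TRINITY_DN704_c0_g2) had 71.2, 45.9 and 35.9 in controls and 81.3, 79.1 and 71.5 after immersion (0.60 ± 0.25, adjusted p = 0.140 in edgeR). The beta subunit of control 1 lay just under the lowest immersion library, 71.2 against 71.5 normalised CPM, and by TPM its groups overlapped. The ratio of beta to alpha in TPM was 2.16, 1.66 and 1.67 in controls and 1.66, 1.69 and 1.79 after immersion, so the subunits kept about the same proportion in 5 libraries and control 1 stood above them.

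Not every cytoplasmic enzyme followed. The aspartate enzyme, DARS (TRINITY_DN5208_c0_g1), had 63.0, 65.1 and 63.8 normalised CPM in the controls, against 64.7, 66.7 and 63.1 after immersion, a log2 fold change of 0.02 ± 0.12. These 6 values overlap, and the controls vary less than those of any other tested ligase. Aats-glupro (TRINITY_DN5523_c0_g1), a fused enzyme that loads both glutamate and proline, had 62.4, 68.0 and 78.1 in controls and 70.6, 66.6 and 60.6 after immersion (-0.08 ± 0.15). Hars had 163, 218 and 312 in controls and 172, 185 and 172 after immersion. Its control 3 was the highest of the 6 libraries and its control 1 the lowest, the reverse of the order in most other enzymes (-0.39 ± 0.24, adjusted p = 0.254 in edgeR). The log2 fold change of Hars was -0.11 without control 3, -0.59 without control 1 and 0.11 against control 1 alone. The alanine enzyme, Aats-ala (TRINITY_DN1913_c0_g1), also had a negative estimate (-0.08 ± 0.16). The remaining cytoplasmic enzymes, for isoleucine, glycine, glutamine, cysteine, leucine, methionine and valine, had log2 fold changes of 0.15 to 0.47 and unadjusted p-values of 0.0568 or more in edgeR.

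Several cytoplasmic ligases are held in a multi-synthetase complex in animals, those for arginine, aspartate, glutamine, glutamate and proline, isoleucine, leucine, lysine and methionine. For the 8 tested members of this complex the median log2 fold change was 0.27, with 7 of 8 positive. The 12 cytoplasmic enzymes outside it had a median of 0.35, with 10 of 12 positive. Ligases fall into class I and class II by the fold of their catalytic domain, and the fused enzyme was left out of that split. The 17 tested rows of class I had a median of 0.34 and the 18 of class II one of 0.48. In edgeR 6 and 9 of them reached an unadjusted p under 0.05, all higher, beside 14.2% of all genes higher and 20.6% lower. Both splits gave overlapping ranges. Values ran from -0.08 to 0.69 in the complex and from -0.39 to 0.70 outside it. Class I ran from -0.06 to 0.76 and class II from -0.39 to 0.80. For cytoplasmic rows alone the class ranges were 0.15 to 0.69 and -0.39 to 0.70. The differences within each split were not tested.

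**Figure D2:**
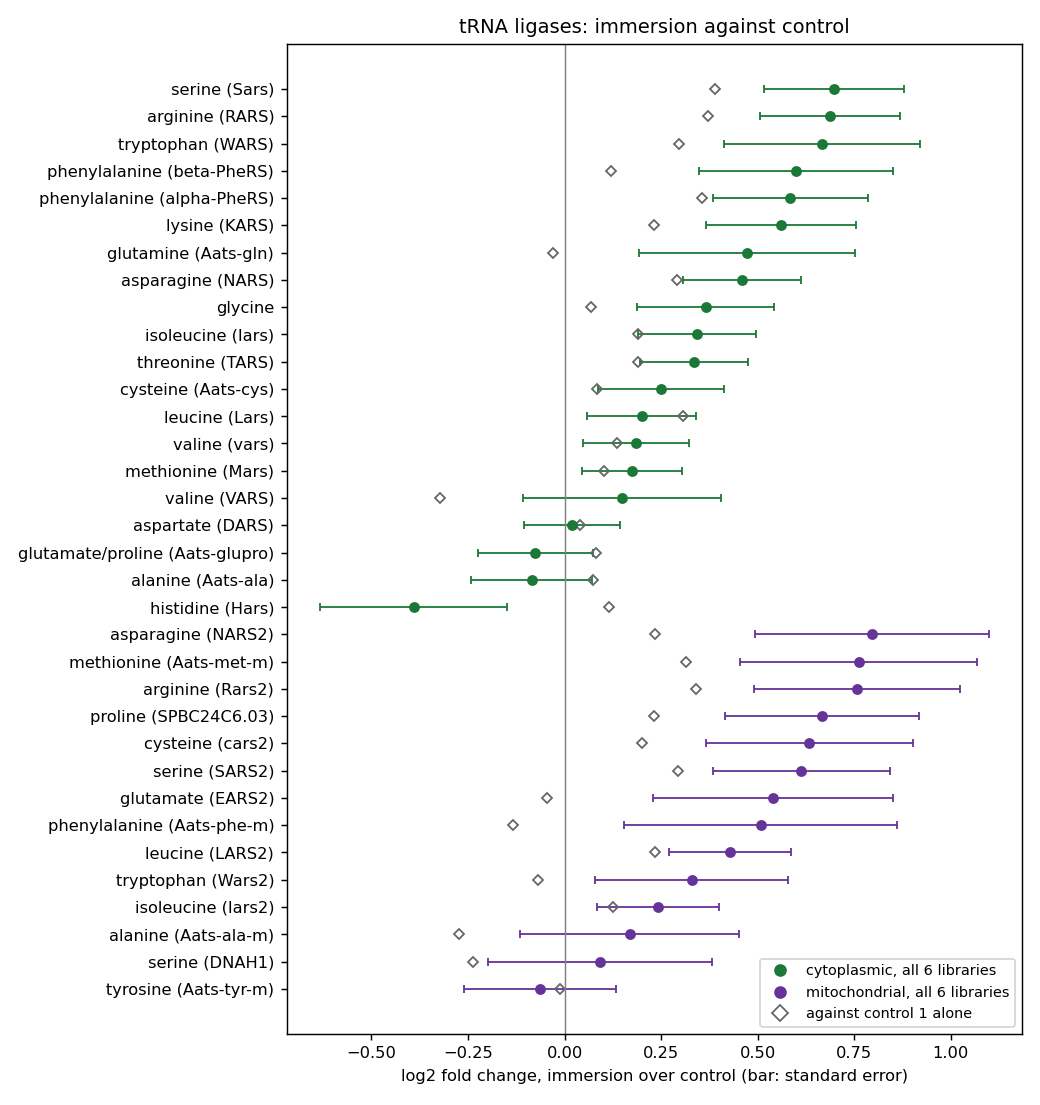
Log2 fold change of immersion over control for 34 of the tested tRNA ligases, with its standard error as a bar, in green for cytoplasmic and purple for mitochondrial enzymes. Open diamonds give the value against control 1 alone. Of the 34 filled points 30 lie right of 0, and 28 of the diamonds lie nearer to 0 than their points.

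The tested mitochondrial ligases had lower levels, of up to 54.7 TPM with a median of 17.6. The methionine enzyme, Aats-met-m (TRINITY_DN1527_c0_g1), had the highest level, 39.8 ± 19.5 TPM in controls and 69.5 ± 5.19 after immersion. The phenylalanine enzyme, Aats-phe-m (TRINITY_DN22467_c0_g3), came next with 27.4 ± 13.7 and 38.5 ± 1.14. Compared were 11 amino acids with a tested ligase of each kind, the fused enzyme left out. The row with the highest mean count stood for each compartment, which for cytoplasmic phenylalanine was beta-PheRS. The cytoplasmic form had the higher TPM in 10, with a median ratio of 2.01. Among these rows the exception was methionine, with 25.7 TPM for the cytoplasmic Mars (TRINITY_DN2008_c0_g1) and 54.7 for the mitochondrial form. Alpha-PheRS, which was not used, had a mean of 26.75 TPM, below the 32.97 of Aats-phe-m. The ratio was widest for asparagine (9.37) and arginine (7.08) and close to 1 for isoleucine (1.10).

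**Figure D3:**
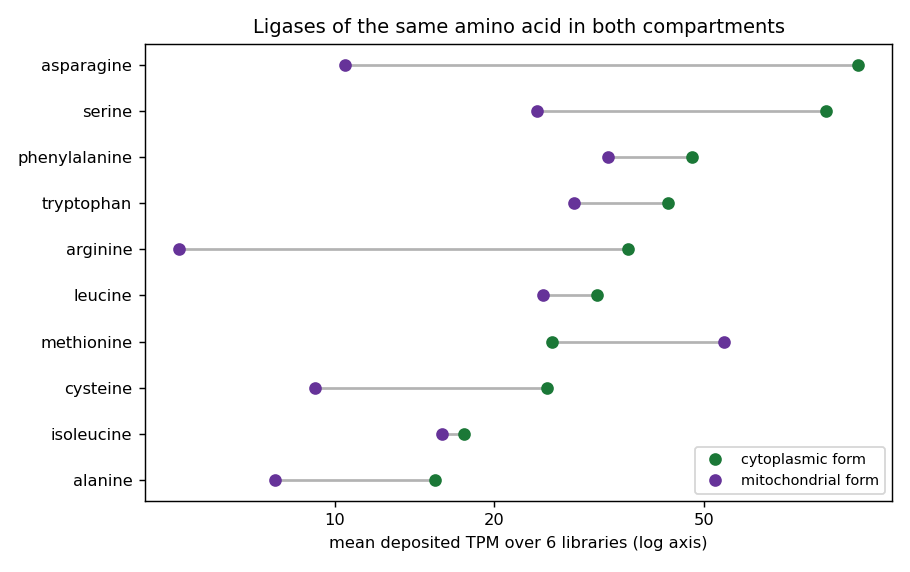
Mean deposited TPM over the 6 libraries (log axis) of the cytoplasmic and the mitochondrial ligase for each of 10 amino acids, joined by a line. The cytoplasmic form lies to the right for 9 amino acids, and the mitochondrial form for methionine. For phenylalanine the cytoplasmic point is the beta subunit.

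Of the 16 tested mitochondrial ligases 15 had a positive log2 fold change, against 51.2% of all genes, and the median was 0.52. In edgeR 7 reached an unadjusted p under 0.05, all higher, beside 14.2% of all genes higher and 20.6% lower. Rars2 (TRINITY_DN11742_c0_g3), for arginine, had 8.70, 5.91 and 4.93 normalised CPM in the controls, against 10.2, 12.3 and 10.4 after immersion (0.76 ± 0.27, adjusted p = 0.114 in edgeR). LARS2 (TRINITY_DN7455_c0_g2), for leucine, had 48.5, 38.1 and 40.6 against 57.1, 52.5 and 61.7 (0.43 ± 0.16, adjusted p = 0.120 in edgeR). The groups were apart in both enzymes, and in both control 1 was the highest control. SARS2 (TRINITY_DN6888_c0_g2), for serine, had 17.6, 14.0 and 10.8 in controls and 23.6, 20.5 and 20.7 after immersion (0.61 ± 0.23, adjusted p = 0.122 in edgeR). The proline enzyme, SPBC24C6.03 by its Swiss-Prot symbol (TRINITY_DN6681_c0_g2), had 41.5, 29.7 and 20.8 against 49.1, 50.5 and 46.4 (0.67 ± 0.25, adjusted p = 0.123 in edgeR). In SARS2 and the proline enzyme control 1 was the highest and control 3 the lowest control, while the immersion libraries stayed within a narrower range. Against control 1 alone Rars2, LARS2, SARS2 and the proline enzyme had log2 fold changes of 0.34, 0.23, 0.29 and 0.23.

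Controls were spread more widely in the asparagine, methionine and phenylalanine enzymes. NARS2 (TRINITY_DN693_c0_g1) had 35.5, 21.5 and 15.1 normalised CPM in the controls, against 38.5, 44.6 and 42.0 after immersion. Its log2 fold change of 0.80 ± 0.30 was the largest of the 36 (adjusted p = 0.124 in edgeR), and against control 1 alone it was 0.23. Aats-met-m had 45.2, 35.7 and 18.4 in controls and 53.5, 61.3 and 53.6 after immersion (0.76 ± 0.31, adjusted p = 0.133 in edgeR, and 0.31 against control 1 alone). In Aats-phe-m the controls held 58.7, 34.1 and 20.0 and the immersion libraries 50.01, 57.2 and 53.3, so control 1 exceeded every immersion library and the groups overlapped (0.51 ± 0.35, adjusted p = 0.302 in edgeR). Against control 1 alone its log2 fold change was -0.13. The lowest estimates in this compartment were those of the tyrosine enzyme, Aats-tyr-m (TRINITY_DN2127_c0_g2), with 18.1, 17.8 and 20.4 in controls and 16.1, 21.3 and 16.5 after immersion (-0.06 ± 0.20), and of DNAH1, with 3.69, 2.99 and 2.11 against 2.74, 2.99 and 3.66 (0.09 ± 0.29). Neither differed by more than its standard error. The mitochondrial enzymes for cysteine, glutamate, isoleucine, tryptophan and alanine lay between 0.17 and 0.63.

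Summed over each set, mitochondrial ligases came to 325, 249 and 174 TPM in controls 1, 2 and 3 and to 354, 357 and 352 after immersion. Cytoplasmic ligases came to 854, 847 and 809 TPM in controls and to 1034, 972 and 977 after immersion. The sums were apart in both sets, but the mitochondrial controls varied far more. The ratio of the cytoplasmic to the mitochondrial sum was 2.63, 3.40 and 4.64 in controls and 2.92, 2.72 and 2.77 after immersion. Control 1 lay just below the immersion libraries in this ratio, and controls 2 and 3 above them. For 7 of the 11 amino acids the mitochondrial form had the larger log2 fold change, with a median difference of 0.23. With the trend on transcript length removed from each library, the medians of the cytoplasmic and mitochondrial sets were 0.36 and 0.37, against 0.34 and 0.52 without that step.

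The control libraries were unequal, in the same order for most but not all of the enzymes. Control 3 was the lowest of the 6 libraries for 23 of the 36 ligases, against 40.1% of all tested genes, and control 1 exceeded control 2 and control 2 exceeded control 3 for 23, against 38.1%. The median coefficient of variation of the ligases was 23.4% among controls and 6.37% among immersion libraries, and over all tested genes it was 27.2% and 8.70%. Against control 1 alone 28 of 36 ligases had a positive log2 fold change, where 51.4% of all genes did, and the medians were 0.13 for cytoplasmic and 0.18 for mitochondrial ligases. In that fit 1 ligase, RARS, was higher at an unadjusted p under 0.05 (0.0494 in edgeR) and 0 were lower, with backgrounds of 2.71% and 4.89%, and 0 passed after adjustment, with a background of 0.0108%. The control arm of that fit is 1 library, assumed to vary like the other libraries. All 3 immersion libraries lay above control 1 for 24 of the 36 ligases, against 35.9% of all genes. Without control 1 edgeR called 22 ligases higher and 1 lower, Hars, where 52.3% of all genes were called and 25.7% were called higher. In that contrast immersion and the presence of worm reads cannot be told apart. Without control 3 edgeR called 0 ligases, where 3.87% of genes were called and 0.887% called higher. In DESeq2 4 ligases, Sars, RARS, NARS and Rars2, were called, all higher, beside 22.1% of genes called and 7.21% called higher. In limma-voom with library weights 28 were called, 27 higher and 1 lower, Hars, beside 68.9% of genes called and 36.2% called higher. With length trends removed 0 were called, beside 0.303%.

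The other tRNA genes of bees were described from lists that group them by function. Ribonuclease P and the other tRNA processing enzymes, which trim, splice and finish tRNA precursors, had 12 of 12 positive log2 fold changes and a median of 0.70. At an unadjusted p under 0.05 there were 5 higher and 0 lower, where 14.2% of all genes were higher and 20.6% lower, and 0 passed after adjustment. The ribonuclease P subunit p30 (TRINITY_DN23106_c0_g1) had 7.94, 7.15 and 3.17 normalised CPM in the controls, against 13.5, 15.7 and 14.3 after immersion (1.25 ± 0.34, adjusted p = 0.0914 in edgeR). This estimate exceeded that of every ligase, and against control 1 alone it was 0.87. POP4 (TRINITY_DN8626_c0_g1), another subunit, averaged 5.76 ± 3.56 and 13.5 ± 1.10, and Rpp25l (TRINITY_DN90_c1_g1) 7.18 ± 2.37 and 12.8 ± 0.159. The subunit rpr2 (TRINITY_DN2534_c0_g1), with the highest TPM of the list, averaged 5.78 ± 3.73 and 11.5 ± 0.958.

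Enzymes that modify tRNA bases had 31 of 35 positive values and a median of 0.70, and an unadjusted p fell under 0.05 for 20 higher and 1 lower, beside 14.2% and 20.6% of all genes, with 0 after adjustment. Trmt10a (TRINITY_DN6251_c0_g1), a guanine methyltransferase, averaged 9.50 ± 1.96 normalised CPM in controls, against 16.9 ± 0.580 after immersion (0.83 ± 0.22, adjusted p = 0.0907 in edgeR). FTSJ1 (TRINITY_DN3015_c0_g1), which methylates riboses of the anticodon loop, had 38.1, 29.8 and 19.2 in controls and 54.1, 55.3 and 57.8 after immersion (0.94 ± 0.25, adjusted p = 0.0907 in edgeR). ELP4 (TRINITY_DN3630_c0_g1), a subunit of the Elongator complex that modifies wobble uridines, averaged 9.46 ± 3.71 and 20.3 ± 1.76. The methyltransferase of guanine 37, CG32281 (TRINITY_DN233_c0_g2), with the highest TPM of this list, averaged 35.0 ± 11.7 and 56.8 ± 4.26. Against control 1 alone these genes had log2 fold changes of 0.56, 0.55, 0.57 and 0.33.

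RNA polymerase III, which transcribes tRNA genes, and its factors had 11 of 14 positive values and a median of 0.50, and an unadjusted p fell under 0.05 for 7 higher and 1 lower, beside 14.2% and 20.6% of all genes, with 0 after adjustment. Among them the factor GTF3C1 (TRINITY_DN4635_c0_g2), the largest subunit of TFIIIC, went the other way, with 66.4, 66.9 and 69.4 normalised CPM in the controls, against 49.4, 45.2 and 47.3 after immersion. Its controls lay close together, control 1 included (-0.51 ± 0.13, adjusted p = 0.0907 in edgeR, and -0.49 against control 1 alone). A small TFIIIC subunit, polypeptide 6 (TRINITY_DN12936_c0_g1), averaged 9.69 ± 4.70 in controls and 23.4 ± 2.06 after immersion. The polymerase subunit POLR3E (TRINITY_DN3876_c1_g1) averaged 29.9 ± 4.41 in controls and 41.7 ± 1.02 after immersion.

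The lists of the complex scaffold with the peptidyl-tRNA hydrolases, and of enzymes that act on charged tRNA, were short. AIMP2 (TRINITY_DN983_c0_g1), the scaffold of the multi-synthetase complex, had 77.9, 43.1 and 26.5 normalised CPM in the controls, against 70.9, 87.3 and 83.9 after immersion. Control 1 lay within the range of the immersion libraries (0.71 ± 0.36, adjusted p = 0.183 in edgeR, and 0.05 against control 1 alone). With 5 peptidyl-tRNA hydrolases, which free stalled chains from tRNA, its list had 5 of 6 positive values and a median of 0.71. There MRPL58 (TRINITY_DN3588_c0_g1) averaged 28.6 ± 10.9 and 46.7 ± 1.91, and PTRHD1 (TRINITY_DN8372_c0_g1) 3.46 ± 1.35 and 6.30 ± 2.03. Enzymes that alter the amino acid after charging numbered 3, with a median of 0.55. Mtfmt (TRINITY_DN1318_c0_g1), which formylates the mitochondrial initiator, averaged 19.4 ± 9.47 and 31.9 ± 3.18, and subunit B of the glutamyl-tRNA amidotransferase (TRINITY_DN5154_c0_g1) 18.8 ± 6.87 and 27.4 ± 1.96. Sepsecs (TRINITY_DN16987_c0_g1), for selenocysteine, had 10.1 ± 0.913 and 10.8 ± 0.575. In these lists 1 gene, MRPL58, reached an unadjusted p under 0.05 (0.0386 in edgeR, with 14.2% of all genes higher).

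Elongation factors, which carry charged tRNA to the ribosome or recharge the carrier, split in sign, with 4 of 8 positive and a median of 0.27. An elongation factor 1-alpha row (TRINITY_DN14_c1_g1) had 183, 322 and 396 normalised CPM in the controls, against 142, 110.0 and 141 after immersion (-1.20 ± 0.29, adjusted p = 0.0907 in edgeR). The shorter Ef1alpha48D row (TRINITY_DN14_c1_g2), 625 bases long against 2211, which shares its assembly cluster and may share reads, averaged 32.2 ± 8.45 and 13.7 ± 1.69 (-1.23 ± 0.24, adjusted p = 0.0891 in edgeR). The exchange factor subunits 1-beta' (TRINITY_DN469_c0_g2) and 1-gamma (TRINITY_DN275_c0_g1) lay on the other side, with 108 ± 38.95 against 210 ± 18.4 and 418 ± 95.7 against 658 ± 17.8. At an unadjusted p under 0.05 the list held 4 higher and 2 lower genes, beside 14.2% and 20.6% of all genes.

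Genes of the response to amino acid shortage, in which uncharged tRNA activates the kinase GCN2, had 5 of 9 positive values and a median of 0.09, and an unadjusted p fell under 0.05 for 1 higher and 4 lower, beside 14.2% and 20.6% of all genes, with 0 after adjustment. Sestrin, sesn1 (TRINITY_DN551_c0_g1), of a family that senses leucine and restrains TOR signalling in mammals, had 556, 1003 and 1133 normalised CPM in the controls, against 288, 251 and 292 after immersion. All immersion values lay below all controls (-1.70 ± 0.28, adjusted p = 0.0696 in edgeR, and -1.01 against control 1 alone). The TRIB2 rows of the tribbles pseudokinase (TRINITY_DN2513_c0_g2 and TRINITY_DN2513_c0_g1) averaged 200 ± 34.2 and 7.34 ± 0.173 in controls and 134 ± 8.53 and 4.61 ± 0.562 after immersion. Both rows are of the same assembly cluster and may share reads, but they were counted as separate genes.

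**Figure D4:**
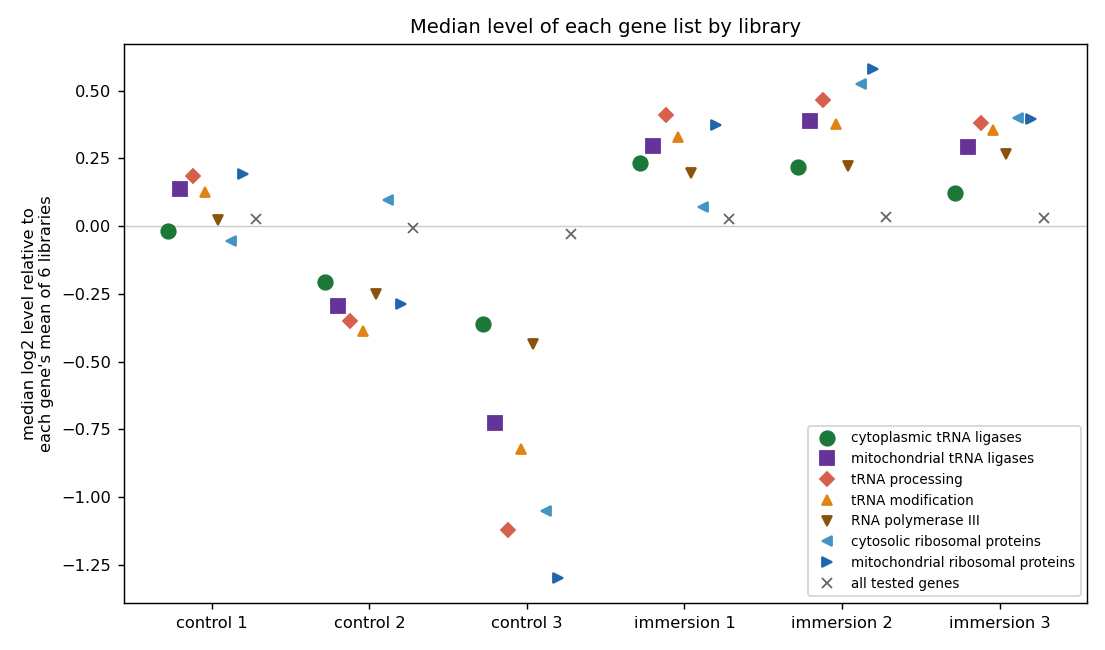
Median over each gene list of the log2 normalised CPM relative to the gene's own mean of 6 libraries, by library. Large green and purple symbols are tRNA ligases, small symbols other lists and all tested genes. Mitochondrial ligases stand at 0.14, -0.29 and -0.73 in controls 1, 2 and 3 and at 0.29 to 0.39 after immersion, and all tested genes stay near 0.

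Ribosomal proteins, the nearest neighbours of the ligases in translation, are set beside them in the plot of medians by library. For the 62 tested mitochondrial ribosomal proteins the median log2 fold change was 0.77, and they stood at 0.19, -0.29 and -1.30 in the controls. The 55 cytosolic ribosomal proteins had a median of 0.53 and stood at -0.05, 0.10 and -1.05. Cytoplasmic ligases had the values -0.02, -0.21 and -0.36 in the same libraries. Control 3 was thus the lowest library for all 4 lists, and by their medians it was lower for ribosomal proteins than for ligases. Without control 3 the medians were 0.27 for cytoplasmic ligases, 0.33 for mitochondrial ligases, 0.29 for cytosolic and 0.46 for mitochondrial ribosomal proteins. The differences between lists were not tested.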

How the data were processed

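RNA of 6 Osmia excavata libraries was compared, 3 control and 3 immersion. Per the labels' protocols, TRIzol RNA was made into oligo(dT) libraries. Tools listed, with no role, are cutadapt 1.9, Salmon and edgeR, per the submitters' processing notes. How genes were assembled and annotated was not given in the sources used here. In 1 table the authors deposited estimated counts per assembled gene, and the authors deposited TPM beside them. Both are for 37061 rows with lengths and protein descriptions and no coordinates.

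Estimated counts of the 11315 rows naming a Hymenoptera genus were rounded to whole numbers and fitted in R 4.3.3 with edgeR 4.0.16 (TMM, filterByExpr, estimateDisp, glmQLFit with its legacy option, glmQLFTest, treatment as the only term, two-sided, Benjamini-Hochberg over 9250 genes, threshold 0.05). The script was tested on simulated data. Normalised CPM are CPM scaled by TMM. Standard errors come from the quasi-likelihood test. The value against control 1 alone is from the same fit with a term for the 4 libraries over 100 worm CPM. Copies and paralogs can share reads in a de novo assembly.

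The members and lists were chosen with earlier results of these data known, and 20 rows that matched a list's words but name another protein were removed. Named ligases are the 8 cytoplasmic and 6 mitochondrial with the smallest p, the 2 with the highest TPM and the 2 with the smallest fold change per compartment. Of each tRNA list the 3 with the smallest p and the 1 with the highest TPM are named. A few genes are counted in sums but not reported here by name or in plots. Alternatives were DESeq2 1.42.0, limma-voom from limma 3.58.1, other scalings and filters, all genes, a loess trend on length (span 0.3), a block for the replicate number, and leaving out each library.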

Additional observations from a re-analysis of the deposited data

Results flagged for a closer look

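The table also holds 27 tRNA ligase rows that match Caenorhabditis and that no comparison above used. They summed to 49.1, 53.4 and 52.6 CPM in immersion libraries 1, 2 and 3, above 12.6 CPM in control 1 and 0 in controls 2 and 3. They were kept apart from the bee members by the genus in their description.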

How the results depend on the processing

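Over all 9250 genes, 0 calls became 2042 in DESeq2, 6369 in limma-voom with library weights, 28 with length trends removed and 1 against control 1 alone. With 1 library left out, and 9362 to 9401 genes tested, calls ranged from 0 to 4912 (362 without control 3). Called ligases went from 0 to 4 in DESeq2 (Sars, RARS, NARS and Rars2, with 7.21% of all genes called higher) and to 28 with library weights (68.9% of genes called), and ranged from 0 to 23 with 1 library left out. The 23 came without control 1, and without every other library 0 were called. Median log2 fold changes against control 1 alone were 0.13 for cytoplasmic and 0.18 for mitochondrial ligases. With 1 library left out they ranged from 0.27 to 0.44 and from 0.33 to 0.86. Both medians kept their sign under every alternative run.

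The signs of 10 ligases turned against control 1 alone. Turns in other settings included those of the named enzymes nearest to 0. DARS was at -0.013 with RLE, -0.0129 with DESeq2, -0.0106 with library weights, -0.000431 with the 5 CPM filter and -0.30 with length trends removed. Aats-glupro was at 0.0281 with upper-quartile scaling, 0.28 with length trends removed, 0.0805 against control 1 alone and between -0.145 and 0.0164 with 1 library left out. Aats-tyr-m was at 0.0384 with upper-quartile scaling, 0.20 with length trends removed and between -0.201 and 0.0127 with 1 library left out. DNAH1 was at -0.15 with length trends removed, -0.24 against control 1 alone and between -0.0927 and 0.291 with 1 library left out. Against control 1 alone Hars was at 0.11, Aats-phe-m at -0.13, Aats-gln at -0.03, EARS2 at -0.05, Wars2 at -0.07, VARS at -0.32, Aats-ala-m at -0.27 and Aats-ala at 0.07. The last 3 of these also turned without control 3, to -0.039, -0.0691 and 0.0421. With length trends removed Aats-ala was at 0.22. The cause was not tested. Upper-quartile scaling put the median of all genes at 0.12 and the fit of all 17998 genes at 0.20, against 0.02, with ligase medians of 0.43 and 0.60 and of 0.36 and 0.53.

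Same-numbered libraries did not deviate together (r = -0.154, 0.141 and 0.164), so the numbers were not taken as pairs. With the replicate number as a block 0 genes and 0 ligases were called, with medians of 0.34 and 0.64.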

Other observations

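Another 41 tRNA ligase rows matched neither a bee nor Caenorhabditis. They summed to 67.4 CPM in control 1, to 0 in controls 2 and 3 and to 33.2, 29.0 and 25.1 CPM in the immersion libraries. The bee ligases were counted in controls 2 and 3 at 27020 and 23377 estimated counts, where these foreign rows had 0.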
